A study of Homo sapiens with 118 samples.

Results

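The genes described here are 10 alpha- and beta-tubulin isotypes, TUBA1A, TUBA1B, TUBA1C, TUBA4A, TUBB, TUBB2A, TUBB2B, TUBB3, TUBB4B and TUBB6. They were followed across 8 histone deacetylase (HDAC) inhibitors in human HepaRG cells. A row of the count table was taken as a member when its name, without the trailing probe number, equalled one of these symbols. The rule found 10 probes for 9 of the 10 genes, among 22068 probes for 19470 symbols, since TUBA1A had 2 probes, TUBA1A_7398 and TUBA1A_12436. TUBB is not analysed here.

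HepaRG is a liver cell line from 1 hepatoma, and its differentiated cultures hold hepatocyte-like and biliary-like cells. Expression was measured by TempO-Seq, where 2 neighbouring oligos are joined on their target transcript and the product is counted by sequencing, so each value is the count of 1 probe and not of a whole transcript. The cells had received 1 inhibitor for 72 h, with daily renewal, at 5 concentrations from C1 (lowest) to C5 (highest). They came from 3 batches of HepaRG cells, and each batch goes with 1 replicate number in the labels, 1, 2 or 3. The series was made to find a transcript signature of HDAC inhibition, and the question here is how the tubulin isotypes changed from C1 to C5.

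The concentrations at C1 and C5, in µM, were 0.0417 and 0.86 for apicidin, 0.177 and 3.9 for mocetinostat, 0.00147 and 0.084 for panobinostat, and 4.94 and 94.5 for scriptaid. They were 1.14 and 44 for tacedinaline, 0.0188 and 1.52 for trichostatin A, and 0.405 and 23.5 for vorinostat. Valproic acid ran from 100.5 to 3038, in a unit that differs between the labels and the protocol. No group carried a genetic change. Solvent controls were not used here, so each chemical's own C1 group was the reference throughout, and any change that had run its full course by C1 does not show here.

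There were 118 libraries in 40 groups, with 3 libraries in 38 groups. The other 2 groups, C3 of panobinostat and C4 of trichostatin A, lacked replicate 3. Total counts ran from 1061359 to 5250260 per library. By the correlation between replicates, 7 libraries stood apart from the rest of their group, namely replicate 1 of apicidin C4 and of mocetinostat C3, and replicate 3 of mocetinostat C2, scriptaid C4, scriptaid C5, trichostatin A C1 and valproic acid C4. Hepatocyte markers were detected, as the label of the cell line calls for. The summed level of 10 of them, none at 0 counts in all libraries, was 13280 to 67180 CPM in the 24 libraries at C1. It was 3430 to 47620 CPM in the 24 at C5. CPM are counts scaled to a library size that was corrected within each chemical. The lowest C1 value was that of trichostatin A replicate 3. In such bulk samples, fewer cells of a type and less RNA per cell cannot be told apart.

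Microtubules are polymers of alpha- and beta-tubulin heterodimers, and each subunit is encoded by several genes, the isotypes, whose proteins differ mostly near their carboxy termini. TUBA1A is known as the main alpha-tubulin of developing neurons, while TUBA1B and TUBA1C are widely expressed and TUBA4A is abundant in platelets and muscle. TUBB2A, TUBB2B and TUBB3 are known from the nervous system, TUBB4B is widespread and TUBB6 is found in many non-neuronal cells. Cells tune tubulin mRNA to the amount of free tubulin, and the enzyme HDAC6 removes acetyl groups from alpha-tubulin.

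Between C1 and C5 TUBA1A rose in 7 chemicals by at least 1 of its probes, TUBA1B fell in 5, TUBB2A rose in 5, TUBB2B rose in mocetinostat and fell in valproic acid, and TUBA4A rose in apicidin and fell in mocetinostat and tacedinaline. Over the 8 chemicals, 66 tests of a member probe were made at C5, of which 19 were called higher and 8 lower. These were 28.8% and 12.1% of the tests, beside 11.6% and 13.4% for all probes. The share called lower was thus near that of all probes. Of the 19, 6 were TUBA1A_12436, which had few counts at C1. It can pass the filter through its higher groups alone, so these calls were partly set by the filter. In apicidin, mocetinostat, scriptaid, tacedinaline and valproic acid both TUBA1A probes were called higher, so this gene enters the counts below by both. A call needed a Benjamini-Hochberg adjusted p under 0.05 over all probes tested in that chemical by edgeR's quasi-likelihood test, and a fold change of at least 1.5. Where groups of 1 chemical are said not to overlap, this only describes their libraries. The share of all probes without overlap within 1 chemical is not reported here.

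In apicidin 4 of 8 members tested rose and 1 fell, where 13.8% of all probes were called higher and 15.0% lower. In mocetinostat 4 of 9 rose and 1 fell, beside 14.8% and 15.7% of all probes. In tacedinaline 3 of 8 rose and 2 fell, beside 18.7% and 20.1%. These 3 chemicals had the most member calls.

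In scriptaid 3 of 8 rose and 1 fell, beside 12.8% and 17.0% of all probes. In vorinostat 2 of 8 rose and 1 fell, beside 22.7% and 24.9%, the largest shares of all probes among the 8 chemicals. In panobinostat 1 of 8 rose and 1 fell, beside 6.77% and 9.46%, and in valproic acid 2 of 9 rose and 1 fell, beside 4.84% and 6.22%. Trichostatin A had 0 calls among 8 members by edgeR and by DESeq2, and 3 members had an unadjusted edgeR p under 0.05. Of all probes in trichostatin A, 0% were called higher and 0.0154% lower, and the count of members was also 0 without replicate 3 of its C1 group.

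The members did not shift together. Their median log2 change at C5 lay between -0.52 in panobinostat and 0.54 in mocetinostat, where the medians of all probes tested were 0.00 and 0.08. In the other chemicals the median of the members was -0.01 in apicidin, 0.27 in scriptaid, 0.51 in tacedinaline, 0.05 in trichostatin A, 0.25 in valproic acid and -0.12 in vorinostat.

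**Figure D1:**
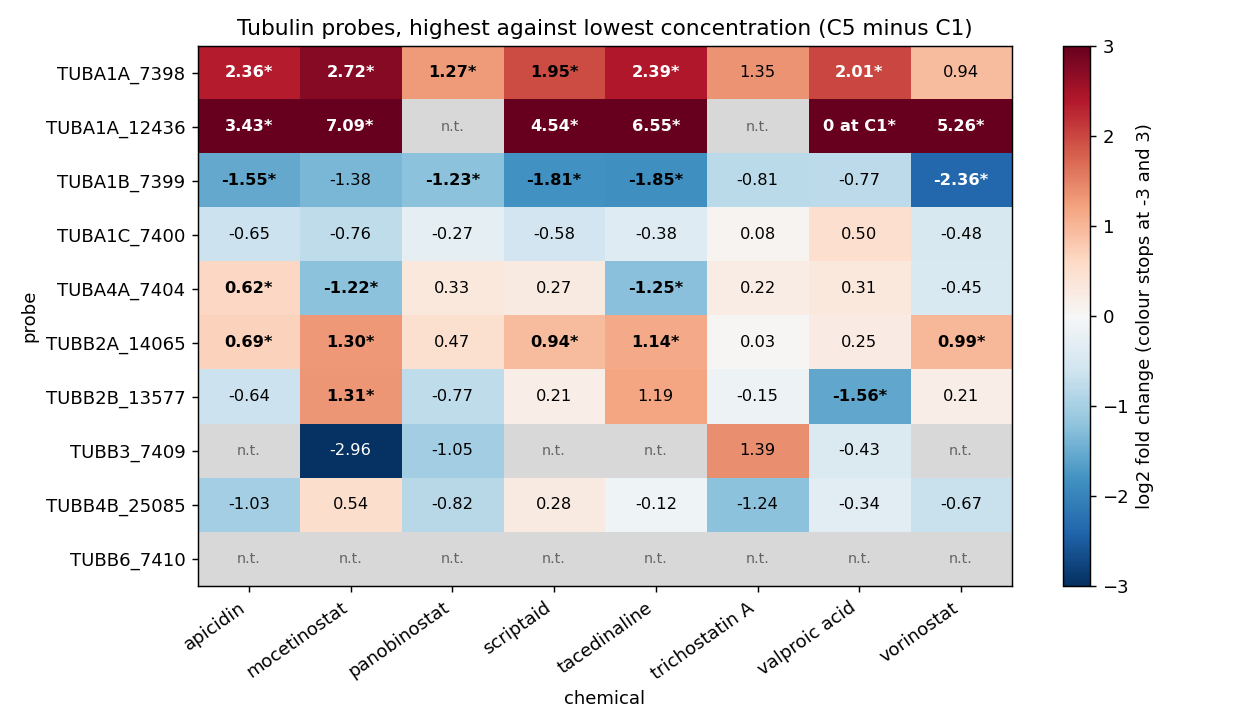
Fitted log2 change from C1 to C5 of each tubulin probe (rows) in each chemical (columns); red is higher and blue lower at C5, asterisks mark calls, n.t. marks probes that did not pass the filter on low counts, and "0 at C1" marks a cell whose 3 C1 libraries held no count. TUBA1A was called higher by at least 1 probe in 7 chemicals, TUBA1B was called lower in 5, and changes of TUBA1A_12436 rest on 5 counts or fewer at C1.

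The neighbouring genes TUBA1A and TUBA1B moved in opposite directions. TUBA1A lies on chromosome 12 at 49184795 to 49189080 of GRCh38.p14, TUBA1B at 49127782 to 49131395, both on the minus strand, with 53400 bases between them, and TUBA1C lies beyond TUBA1A at 49227926 to 49274600. The 250 bases before the RefSeq start of TUBA1A and TUBA1B are shown because these neighbours were called in opposite directions. Capitals mark every match, on either strand, to a CCAAT box (CCAAT), a GC box (GGGCGG) or a TATA box (TATAAA).
TUBA1A, chr12:49189081-49189330, minus strand: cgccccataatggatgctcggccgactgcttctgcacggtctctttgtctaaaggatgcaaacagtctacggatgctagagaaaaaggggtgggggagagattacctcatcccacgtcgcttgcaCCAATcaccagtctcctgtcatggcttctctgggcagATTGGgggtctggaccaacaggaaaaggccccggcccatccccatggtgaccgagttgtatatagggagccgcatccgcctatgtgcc
TUBA1B, chr12:49131396-49131645, minus strand: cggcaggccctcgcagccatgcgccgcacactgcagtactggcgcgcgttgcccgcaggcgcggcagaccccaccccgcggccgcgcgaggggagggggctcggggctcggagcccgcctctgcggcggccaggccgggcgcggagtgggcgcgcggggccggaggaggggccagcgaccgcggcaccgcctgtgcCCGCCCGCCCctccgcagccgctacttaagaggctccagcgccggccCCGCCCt

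The TUBA1A stretch held 2 CCAAT letters, 125 and 88 bases before the start, and 0 GC boxes. The TUBA1B stretch held 3 GC boxes, at 54, 50 and 7 bases, of which the first 2 overlap, and 0 CCAAT letters. Neither held TATAAA. Of 35116 promoter stretches of the same length in the RefSeq table, 32.0% held CCAAT, 42.6% the GC box and 10.7% TATAAA on either strand. The GC content was 56.4% for TUBA1A and 81.2% for TUBA1B. These matches are letters in a window and were not tested as binding sites.

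TUBA1A_7398 rose in 6 chemicals. Its largest change was in mocetinostat, where its level was 5.63, 3.79 and 5.23 CPM in replicates 1, 2 and 3 at C1. At C3 the libraries held 27.2, 27.8 and 26.1 CPM, and at C5 31.4, 26.3 and 39.4 CPM. The 3 libraries of C3 and of C5 thus all lay above those of C1. The log2 change from C1 to C5 was 2.72 (SE 0.34, edgeR adjusted p = 1.653e-05), and counts per C5 library were 123, 104 and 133 against 23, 18 and 21 at C1.

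The other called log2 changes of TUBA1A_7398 at C5 were 2.39 in tacedinaline (SE 0.47), 2.36 in apicidin (SE 0.37), 2.01 in valproic acid (SE 0.42), 1.95 in scriptaid (SE 0.55) and 1.27 in panobinostat (SE 0.43). In panobinostat the edgeR adjusted p was 0.0456, and the call was lost without replicate 1 (log2 change 1.75), replicate 2 (0.84) or replicate 3 (1.25). In scriptaid the call was lost without replicate 1 (1.77) or replicate 2 (2.28). Neither trichostatin A (1.35, SE 0.51) nor vorinostat (0.94, SE 0.51) was called, with edgeR adjusted p-values of 0.438 and 0.122. In every one of the 8 chemicals, all C5 libraries of TUBA1A_7398 lay above all C1 libraries, as was so for 0.328% of the 11288 probes tested in all 8.

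The second TUBA1A probe, TUBA1A_12436, was almost without counts at C1. Over the 3 libraries of a C1 group it held from 0 counts, in valproic acid, to 5, in trichostatin A. In valproic acid the C5 libraries held 27, 9 and 34 counts against 0, 0 and 0 at C1. That is at least 23.3-fold higher when 3 counts are set over the C1 group (edgeR adjusted p = 0.00622), and the call was lost without replicate 1 (edgeR adjusted p = 0.139).

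In mocetinostat TUBA1A_12436 had 3, 0 and 0 counts at C1, then 2, 6 and 7 at C2, 20, 9 and 9 at C3, 36, 26 and 26 at C4, and 208, 134 and 74 at C5. The counts of C3, C4 and C5 did not overlap those of C1. The ratio of the summed counts per library size, C5 over C1, was 158 with an exact 95% counting interval from 53.8 to 771 (edgeR adjusted p = 7.422e-06). Such intervals cover counting error only. Without replicate 1, which held all 3 C1 counts, the fitted log2 change went from 7.09 to 9.81, a value set by the empty C1 group.

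In tacedinaline the counts were 0, 1 and 1 at C1 and 29, 102 and 56 at C5, a ratio of 116 (counting interval 31.5 to 961, edgeR adjusted p = 5.722e-08). The ratio was 26.7 in scriptaid (interval 9.98 to 100.3) and 12.3 in apicidin (interval 4.49 to 47.0), both called. The scriptaid call was lost without replicate 2 (fitted log2 change 3.88 against 4.54), and the apicidin call without replicate 1 (2.81 against 3.43) or replicate 2 (2.81). All C5 libraries lay above all C1 libraries in these 3 chemicals, but for such a probe this is partly set by the filter.

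Vorinostat differed between batches at this probe. Its C5 libraries held 0, 38 and 56 counts for TUBA1A_12436 against 0, 2 and 2 at C1, so that replicate 1 showed none at either concentration. The ratio was 45.0 (interval 17.0 to 169, edgeR adjusted p = 9.959e-04), the call held without replicate 1 or replicate 3, and without replicate 2 the probe did not pass the filter. Panobinostat, with 5, 5 and 4 counts at C5 and 0, 1 and 0 at C1, and trichostatin A, with 0 counts in all C5 libraries, were not tested.

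TUBA1B fell in 5 chemicals. Its largest called change was in vorinostat, where the C1 libraries held 87.3, 95.0 and 185 CPM and the C5 libraries 20.1, 30.4 and 20.2 CPM. The values between were 154, 133 and 194 CPM at C2, 46.0, 41.8 and 99.0 CPM at C3, and 39.3, 34.7 and 54.5 CPM at C4. The C4 and C5 libraries all lay below those of C1, while replicate 3 of C3 lay within the C1 range. From C1 to C5 the log2 change was -2.36 (SE 0.31, edgeR adjusted p = 9.229e-08).

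The log2 change of TUBA1B at C5 was -1.85 in tacedinaline (SE 0.25), -1.81 in scriptaid (SE 0.30), -1.55 in apicidin (SE 0.51) and -1.23 in panobinostat (SE 0.25), all called. The apicidin call (edgeR adjusted p = 0.0246) was lost without replicate 2 (-1.71) or replicate 3 (-1.62) and in DESeq2, and the panobinostat call was lost without replicate 1 (-1.01). The uncalled changes were -1.38 in mocetinostat (SE 0.75), -0.81 in trichostatin A (SE 0.33) and -0.77 in valproic acid (SE 0.34), with edgeR adjusted p-values of 0.184, 0.478 and 0.159. In mocetinostat the call was made without replicate 1 (-1.59) and without the libraries that stood apart (-1.44).

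In all 8 chemicals the 3 C5 libraries of TUBA1B lay below the 3 C1 libraries, which was so for 0.408% of the 11288 probes tested in all 8. Trichostatin A, with 90.2, 135 and 94.7 CPM at C1 and 31.0, 66.8 and 84.5 CPM at C5, was one of the uncalled chemicals, and its replicate 3 at C5 lay just below replicate 1 at C1. Single libraries of TUBA1B were very low at intermediate concentrations. Replicate 1 of apicidin C4, one of the libraries that stood apart, held 1.78 CPM beside 26.6 and 31.4 CPM, and mocetinostat C2 held 1.90, 18.4 and 68.0 CPM, where replicate 3 stood apart.

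**Figure D2:**
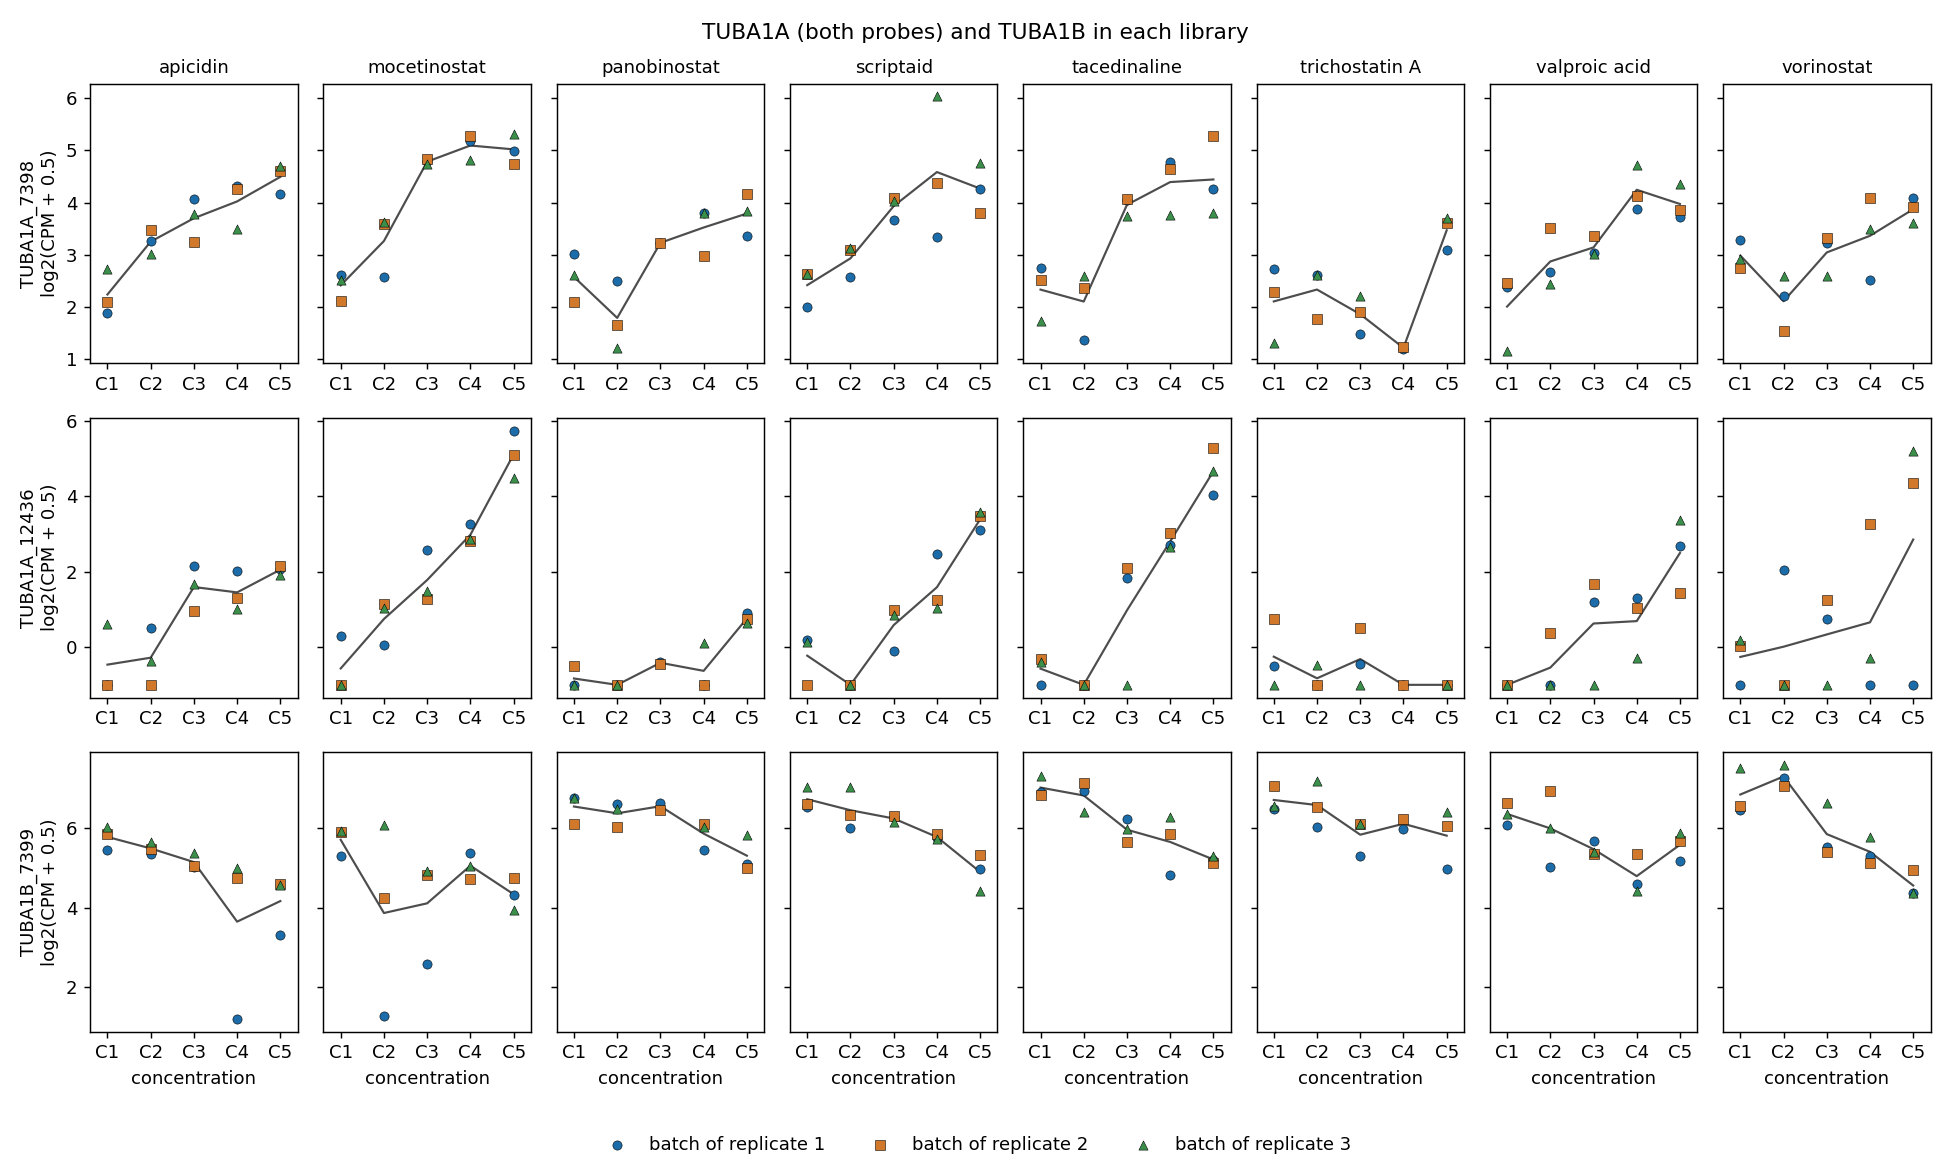
Level of both TUBA1A probes and of TUBA1B in each library, as log2(CPM + 0.5), by concentration (C1 to C5) and chemical; point shapes and colours give the HepaRG batch and lines join the group means of the log2 values. The C5 points of TUBA1A_7398 lie above, and those of TUBA1B below, the C1 points in all 8 chemicals, while TUBA1A_12436 starts at or near 0 counts.

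TUBA1C, the widely expressed isotype next to TUBA1A, was called in no chemical at C5 (0 calls, 0 unadjusted edgeR p-values under 0.05, and 0 calls by DESeq2). Its log2 change ran from -0.76 in mocetinostat (SE 0.94, edgeR adjusted p = 0.582) to 0.50 in valproic acid (SE 0.56, edgeR adjusted p = 0.657). In mocetinostat the level was 5.38, 6.11 and 5.48 CPM at C1 and 3.06, 2.53 and 4.44 CPM at C5, which did not overlap. At 10 to 29 counts per library there, the 95% interval of the fitted log2 change ran from -2.60 to 1.08, so the fit did not settle its direction. The ratio of summed counts, C5 over C1, was 0.5784. Its counting interval, 0.3785 to 0.8705, covers counting error only and not the spread between libraries. TUBA1A, TUBA1B and TUBA1C transcripts are very similar, and whether a probe also counts a neighbour's transcript was not tested.

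TUBA4A was called higher in 1 chemical and lower in 2 at C5, and had the smallest p-value of the members in the test among chemicals below. Its log2 changes ran from -1.25 to 0.62, a narrower range than that of TUBB2B (-1.557 to 1.315). TUBA4A lies on chromosome 2 at 219249710 to 219254740, on the minus strand. It overlaps TUBA4B, whose own probe held 0 to 2 counts in every library. TUBA4A held 342 to 8260 counts, so its counting error was small. The counts were taken under the probes' own names.

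In tacedinaline the TUBA4A level was 515, 612 and 594 CPM at C1, 331, 329 and 355 CPM at C4, and 235, 245 and 243 CPM at C5. All C4 and C5 libraries lay below those of C1. The log2 change at C5 was -1.25 (SE 0.13, edgeR adjusted p = 5.046e-11). At C2 and C3 the libraries held 472 to 674 CPM and the probe was not called.

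In mocetinostat TUBA4A first went up and then down. Its level was 603, 662 and 698 CPM at C1, 2245, 1830 and 786 CPM at C2, 1211, 582 and 714 CPM at C3, 453, 482 and 456 CPM at C4, and 264, 286 and 293 CPM at C5. All C2 libraries lay above and all C5 libraries below those of C1, but the C2 rise was not called in the fit of all libraries. The C2 library of 786 CPM, replicate 3, and the C3 library of 1211 CPM, replicate 1, were among those that stood apart.

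In mocetinostat the C5 change was -1.22 in log2 units (SE 0.31; adjusted p = 0.00675 in edgeR), and the call was lost without replicate 2 (-1.23). Mocetinostat and tacedinaline are the benzamides among these inhibitors. Panobinostat, scriptaid, trichostatin A and vorinostat are hydroxamic acids, apicidin is a cyclic tetrapeptide and valproic acid a short fatty acid. Concentrations differed between all of them, so their values are set side by side only.

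Apicidin was the chemical in which TUBA4A rose at C5, from 549, 504 and 674 CPM at C1 to 768, 1029 and 856 CPM, without overlap. The log2 change was 0.62 (SE 0.18, edgeR adjusted p = 0.0108), and the call was lost without replicate 2 (0.41). In vorinostat the level fell from 456, 430 and 452 CPM to 312, 342 and 323 CPM. That change of -0.45 (SE 0.12, edgeR adjusted p = 0.00285) did not reach the fold change of 1.5. In panobinostat, scriptaid, trichostatin A and valproic acid the log2 change lay between 0.22 and 0.33 and was not called. In trichostatin A the C1 libraries held 466, 410 and 212 CPM, the lowest being replicate 3, which stood apart.

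The difference among chemicals was tested in 1 fit of all 118 libraries. An edgeR F test compared the C5 minus C1 changes of the 8 chemicals, and 30.3% of 15632 probes passed. Scriptaid, tacedinaline and vorinostat carried the plate label E and the other 5 chemicals H. A difference between plates in the response thus cannot be told apart here from a difference between those sets of chemicals. For TUBA4A the adjusted p was 2.082e-08, and it stayed between 4.521e-08 and 0.00171 when each batch was left out in turn. For TUBA1A_12436 it was 0.00654, but 0.550 without trichostatin A and 0.460 without replicate 2. For TUBB2B it was 0.0492, 0.0535 with the batch as a block, and 0.130, 0.340 and 0.0993 without replicates 1, 2 and 3. The other 6 members tested had adjusted p-values of 0.118 to 0.940 by this edgeR test, so the fit did not separate the 8 chemicals in TUBA1A_7398 (0.135), TUBA1B (0.344) or TUBB2A (0.153).

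**Figure D3:**
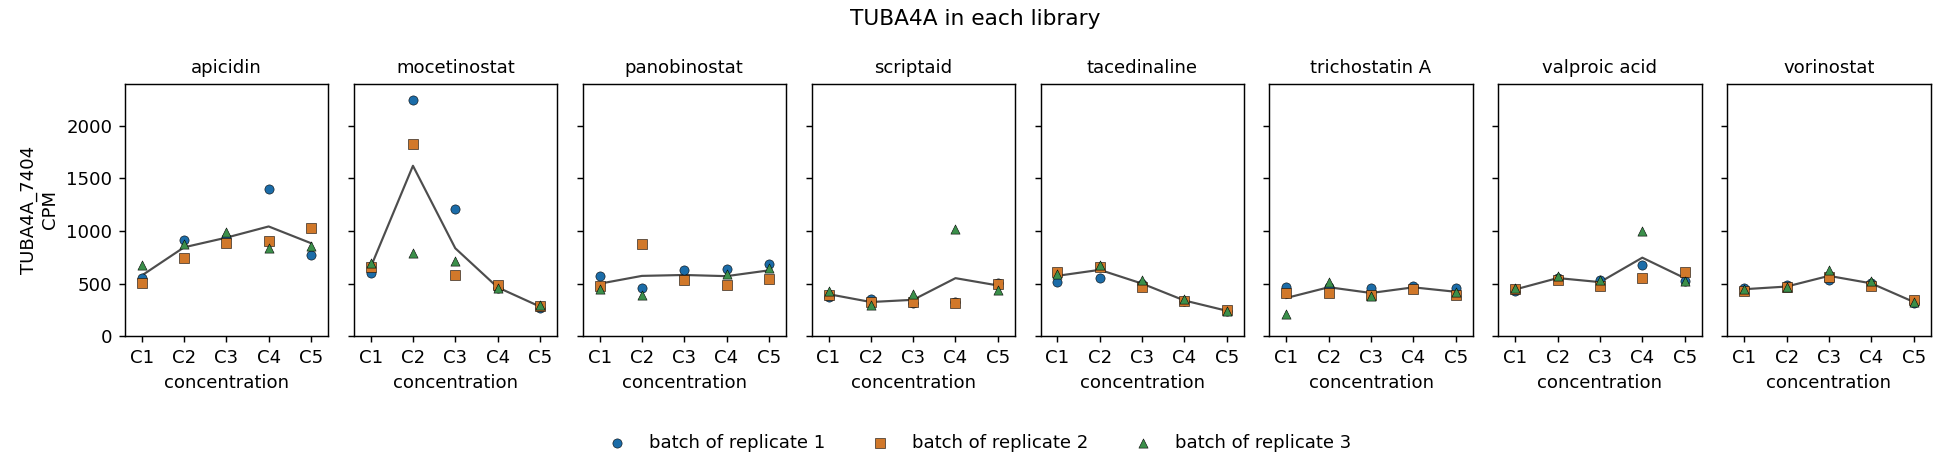
Level of TUBA4A in CPM in each library by concentration and chemical; shapes and colours give the HepaRG batch and lines join the group means. C5 lies below C1 in mocetinostat, tacedinaline and vorinostat and above it in apicidin, scriptaid and valproic acid; mocetinostat C2 holds the 2 highest libraries, 2245 and 1830 CPM.

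The neighbours TUBB2A and TUBB2B, beta-tubulins with nearly the same protein, were both called higher in mocetinostat, while TUBB2A was also called higher in 4 other chemicals and TUBB2B was called lower in valproic acid. The difference between the 2 genes was not tested. TUBB2A lies on chromosome 6 at 3153666 to 3157544 and TUBB2B at 3224277 to 3227653 of GRCh38.p14, both on the minus strand and 66733 bases apart. Their 250 bases before the start are shown to set the 2 genes side by side, with the same capitals as above.
TUBB2A, chr6:3157545-3157794, minus strand: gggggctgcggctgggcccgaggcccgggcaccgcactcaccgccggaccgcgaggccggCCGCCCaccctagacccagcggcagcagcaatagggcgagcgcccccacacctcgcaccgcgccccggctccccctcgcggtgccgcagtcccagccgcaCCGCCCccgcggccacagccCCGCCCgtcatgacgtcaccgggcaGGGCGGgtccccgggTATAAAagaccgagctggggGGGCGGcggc
TUBB2B, chr6:3227654-3227903, minus strand: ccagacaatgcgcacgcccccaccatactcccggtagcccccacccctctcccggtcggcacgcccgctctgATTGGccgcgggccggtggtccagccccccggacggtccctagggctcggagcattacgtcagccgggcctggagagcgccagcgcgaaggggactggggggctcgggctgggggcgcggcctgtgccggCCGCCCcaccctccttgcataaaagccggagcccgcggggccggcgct

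TUBB2A held 5 GC boxes and a TATAAA 30 bases before the start, with 0 CCAAT letters. TUBB2B held 1 GC box, 48 bases before the start, 1 CCAAT letter match at 178 bases, and 0 TATAAA. In a global alignment the 2 stretches were identical at 52.7% of columns, within the range of 43.8% to 57.9% over all pairs of these 9 genes' stretches.

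TUBB2A rose in 5 chemicals. The largest change was in mocetinostat, from 45.8, 43.2 and 25.2 CPM at C1 to 120.5, 69.0 and 91.2 CPM at C5, without overlap. The log2 change was 1.30 (SE 0.46, edgeR adjusted p = 0.0398), and its adjusted p was 0.0508 once HepaRG batch was a block. The call was also lost without replicate 2 (1.57) or replicate 3 (1.09). Between these concentrations the mocetinostat libraries held 6.52, 20.3 and 33.6 CPM at C2 and 95.2, 99.7 and 99.4 CPM at C4.

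TUBB2A was higher by a log2 change of 1.14 in tacedinaline (SE 0.22), from 38.1, 39.5 and 47.4 CPM to 87.2, 95.6 and 95.0 CPM. In vorinostat it went from 43.6, 47.2 and 40.2 CPM to 74.8, 79.0 and 106 CPM, a log2 change of 0.99 (SE 0.23). The groups did not overlap in either. These 2 calls held when each replicate was left out.

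The log2 change of TUBB2A was 0.94 in scriptaid (SE 0.28), a call lost without replicate 1 (0.99) or replicate 2 (0.75). It was 0.69 in apicidin (SE 0.26, edgeR adjusted p = 0.0474), a call lost without any one of replicates 1 (0.66), 2 (0.74) and 3 (0.65). Panobinostat (0.47), valproic acid (0.25) and trichostatin A (0.03) were not called.

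TUBB2B fell in valproic acid, from 8.45, 8.47 and 13.6 CPM at C1 to 2.83, 2.93 and 4.68 CPM at C5. All C5 libraries lay below those of C1, at 12 to 16 counts each. The log2 change was -1.56 (SE 0.42, edgeR adjusted p = 0.0161). The call was lost without replicate 1 (adjusted p = 0.164), 2 (0.0926) or 3 (0.0798) in edgeR, while the log2 change stayed between -1.56 and -1.55.

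In mocetinostat TUBB2B rose, from 10.5, 8.43 and 9.22 CPM to 10.7, 34.9 and 24.6 CPM. Replicate 1 at C5 lay just above the highest C1 library, and the other replicates far above it. The log2 change was 1.31 (SE 0.42, edgeR adjusted p = 0.0245), and the call was lost without replicate 2 (0.83) or replicate 3 (1.26). Tacedinaline had a log2 change of 1.19 (SE 0.50) that was not called (edgeR adjusted p = 0.0536) but was called with the batch as a block (adjusted p = 0.0457). Its groups overlapped, since the C1 libraries held 5.32, 16.6 and 5.86 CPM and the C5 libraries 8.72, 24.1 and 32.9 CPM.

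**Figure D4:**
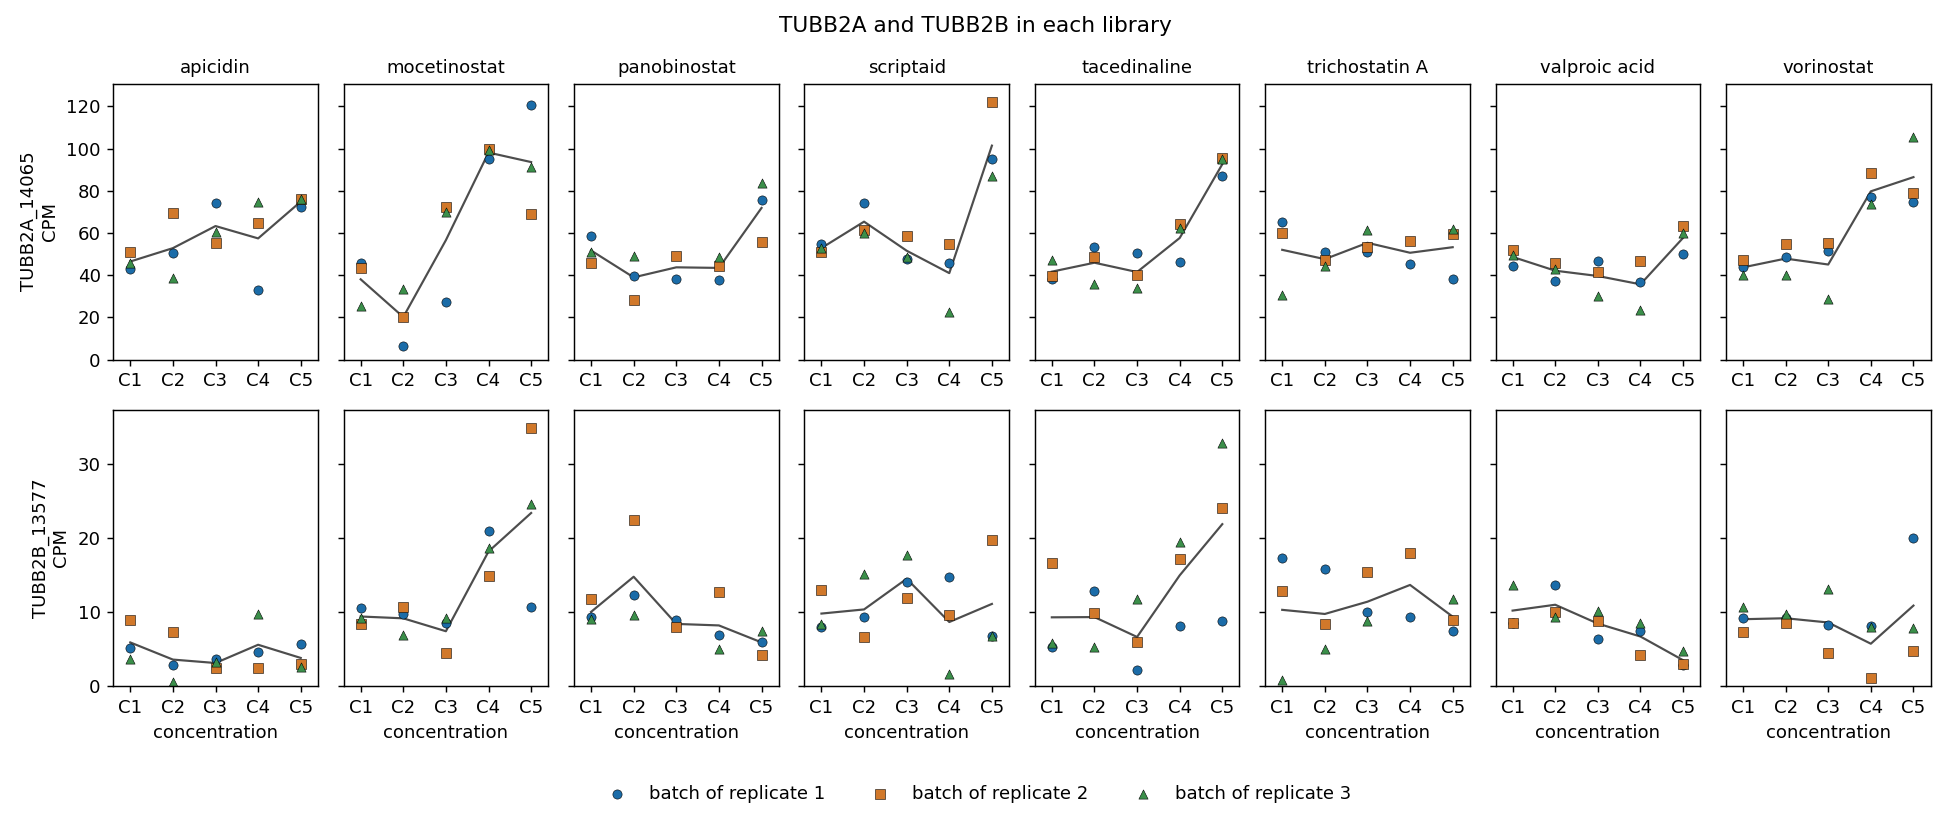
Levels of TUBB2A (top) and TUBB2B (bottom) in CPM in each library by concentration and chemical; shapes and colours give the HepaRG batch and lines join the group means. TUBB2A is higher at C5 in 5 chemicals by the test, while TUBB2B is higher in mocetinostat and lower in valproic acid.

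TUBB3, the class III beta-tubulin used as a marker of neurons, was called in no chemical. It passed the filter in 4 chemicals, with 0 calls, 0 unadjusted edgeR p-values under 0.05 and 0 calls by DESeq2. It lies on chromosome 16 at 89921925 to 89936097. Among the 4 chemicals that tested it, its largest change was in mocetinostat. The level there went from 3.42, 1.05 and 0.249 CPM at C1 to 0, 0.506 and 0 CPM at C5, and the ranges overlapped. The log2 change of -2.96 had an SE of 1.42 (edgeR adjusted p = 0.130).

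Trichostatin A went the other way for TUBB3, by 1.39 (SE 0.91), also not called (edgeR adjusted p = 0.660). With a median of 5 counts per library, and 16 libraries at 0, TUBB3 had large counting error. Where it did not pass the filter, its change was not tested. The ratio of summed counts there, C5 over C1, was 0.104 in vorinostat (counting interval 0.0121 to 0.402) and 0.124 in scriptaid (0.0141 to 0.500). It was 0.353 in tacedinaline (0.139 to 0.795) and 0.998 in apicidin (0.447 to 2.22). All C5 libraries lay below all C1 libraries in vorinostat and scriptaid. Across the 40 group means of log2(CPM + 0.5), the probes most like TUBB3 among 13835 included POU6F1_24133, MAGED4B_33766, IL15RA_27350 and DPY19L2_1952, with Pearson's r from 0.784 to 0.793. That is a description over groups that share batches and plates.

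TUBB4B, a widely expressed beta-tubulin on chromosome 9 at 137241287 to 137243707, was called in no chemical by edgeR, where 3 of 8 unadjusted p-values were under 0.05. Its largest change was in trichostatin A, from 20.8, 27.0 and 26.6 CPM to 3.10, 18.1 and 10.2 CPM, without overlap. That log2 change was -1.24 (SE 0.41, edgeR adjusted p = 0.389). In apicidin it was -1.03 (SE 0.40, edgeR adjusted p = 0.0579), and this was called by DESeq2 and without the library that stood apart.

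TUBB6, on chromosome 18 at 12307669 to 12329826, passed the filter in no chemical. Its probe held 14 counts in all, in 9 of 118 libraries, with 4 counts at most. A floor of 3 counts equals 0.596 CPM in the deepest library and 2.74 CPM in the shallowest, so TUBB6 lay at or under the floor nearly everywhere.

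Below C5, 0 of 66 member tests were called at C2, where 8 had an unadjusted edgeR p under 0.05. At C3 6 were higher and 2 lower, in 4 chemicals, and at C4 11 were higher and 5 lower, in 6 chemicals. The shares of all probes called at C2 were 0.102% in apicidin, 0.191% in mocetinostat, 0% in panobinostat, 0% in scriptaid, 0.385% in tacedinaline, 0% in trichostatin A, 0% in valproic acid and 0.0172% in vorinostat. Without the libraries that stood apart, mocetinostat C2 had 5 member calls and 4659 calls among all probes.

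At C3 the calls were TUBA1A_7398 in apicidin, mocetinostat and tacedinaline, TUBA1A_12436 in the latter 2, TUBA4A (higher) in apicidin, and TUBA1B (lower) in tacedinaline and vorinostat. At C3 15.3% of all probes were called in apicidin, 11.6% in mocetinostat, 0.00763% in panobinostat, 1.34% in scriptaid, 11.9% in tacedinaline, 0% in trichostatin A, 1.13% in valproic acid and 7.06% in vorinostat. TUBA1A was thus called from C3 on in 3 chemicals, and the log2 change of TUBA1A_7398 at C3 was 2.47 in mocetinostat (SE 0.34), 1.76 in tacedinaline (SE 0.48) and 1.57 in apicidin (SE 0.37). Without the libraries that stood apart, the number of member calls at C3 was 3 in apicidin, 3 in mocetinostat and 1 in scriptaid, beside 2506, 2397 and 948 calls among all probes. In scriptaid C3 all libraries together gave 59 higher and 112 lower calls among all probes.

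At C4 TUBA1A_7398 was also called in scriptaid (log2 change 2.62) and valproic acid (2.30), TUBA1A_12436 again in mocetinostat and tacedinaline, and TUBA1B in apicidin, tacedinaline, valproic acid (-1.54) and vorinostat. TUBA4A was called higher in apicidin (0.86) and valproic acid (0.75) and lower in tacedinaline (-0.76), and TUBB2A higher in mocetinostat (1.36) and vorinostat (0.87). Replicate 3 of valproic acid C4, which stood apart, held 1002 CPM of TUBA4A beside 681 and 555 CPM, and replicate 3 of scriptaid C4 held 65.1 CPM of TUBA1A_7398 beside 9.67 and 20.2 CPM. Without the libraries that stood apart, C4 had 2 member calls in scriptaid, beside 1472 calls among all probes, where all libraries gave 1 member call beside 282 higher and 341 lower calls among all probes. In valproic acid C4 had 3 member calls, as with all libraries, beside 1419 calls among all probes. At C4 the shares of all probes called were 22.3% in apicidin, 23.7% in mocetinostat, 2.56% in panobinostat, 4.87% in scriptaid, 32.8% in tacedinaline, 0% in trichostatin A, 11.9% in valproic acid and 32.3% in vorinostat.

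Other genes of the tubulin system were counted in the same fits, added up over the 8 chemicals. Of 101732 tests of all probes at C5, 11.6% were called higher and 13.4% lower. Among 39 tests of other tubulins, 11 were higher and 0 lower. TUBG1, the gamma-tubulin that nucleates microtubules, rose in 5 chemicals with log2 changes from 0.61 in apicidin to 1.14 in tacedinaline. The alpha-tubulins TUBA3E and TUBA3D rose in 3 and 2 chemicals, both of them in tacedinaline and valproic acid.

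For tubulin folding and mRNA autoregulation, 31 of 184 tests were higher and 1 lower. PFDN6, a subunit of the prefoldin chaperone that passes tubulin to the CCT ring, rose in all chemicals but trichostatin A, by 0.73 in valproic acid to 2.24 in vorinostat on the log2 scale. TCP1, a CCT subunit, rose in 5 chemicals by probe TCP1_92626 and in 4 by TCP1_92625. Of the other CCT subunits tested, CCT8 rose in 3 chemicals, and CCT2, CCT3, CCT4, CCT5 and CCT7 had 0 calls. Of the other prefoldin subunits tested, PFDN2 rose in 3 and PFDN5 in 2, and PFDN1 and VBP1 had 0 calls.

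Among enzymes that modify tubulin, 24 of 134 tests were higher and 19 lower. HDAC6, the deacetylase of alpha-tubulin, was measured by 4 probes. HDAC6_90749 and HDAC6_91641 fell in 7 chemicals, with log2 changes from -1.62 to -0.84, and were uncalled in trichostatin A (0.52 and 0.03). HDAC6_91698 was lower in 2 chemicals and HDAC6_91428 in 1, and none of the 4 was called higher. AGTPBP1, which removes glutamates from tubulin tails, rose in 5 chemicals, by up to 2.62 in mocetinostat.

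Of 226 tests of microtubule-binding and severing proteins, 56 were higher and 31 lower. MAP1A, which binds along microtubules, rose in 7 chemicals with log2 changes of 2.06 to 5.02. FIGN, a microtubule-severing enzyme, fell in 7 chemicals by 0.83 to 2.47 on the log2 scale.

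Markers of cell types and of cell division moved in the same comparisons. Hepatocyte markers were lower in 80 of 96 tests and higher in 0, with both CYP3A4 probes lower in 7 chemicals. Cell division markers were lower in 50 of 80 tests and higher in 0, led by MKI67 in 7 and CENPF and TOP2A in 6. Their summed level was 439 to 1135 CPM at C1 and 81.1 to 893 CPM at C5, where none of the 10 markers was at 0 in all libraries.

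Neuronal markers were higher in 14 of 39 tests and lower in 1. NEFL, a neurofilament, was higher in the 4 chemicals that tested it. SYP, a synaptic vesicle protein, was higher in 4 and 3 by its 2 probes. A probe with few counts at C1 can pass the filter through its higher groups alone, so such calls were partly set by the filter. SYT1, tested in 8 chemicals, had 0 calls, and MAP2_26319 was higher in 1 and lower in 1. The summed level of 12 genes was 138 to 439 CPM at C1 and 234 to 658 CPM at C5. Its median fell in mocetinostat (382.7 to 268.0), scriptaid (379.5 to 270.6) and tacedinaline (427.5 to 396.9), and rose in the other chemicals. Biliary and progenitor markers were higher in 11 of 33 tests, with SPP1 and SOX9 in 5 chemicals each and KRT19 in 1 by 1 of its 2 probes. Their sum over 7 genes was 64.8 to 149 CPM at C1 and 61.9 to 214 CPM at C5.

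Mesenchymal markers were lower in 24 of 64 tests and higher in 7, with COL3A1 and ACTA2 lower in 7 chemicals and COL1A1 higher in 6. Their sum over 8 genes was 95.6 to 214 CPM at C1 and 79.3 to 142 CPM at C5. The part of these markers in the changes of the tubulins was not tested. The mean total count was lower at C5 than at C1 in all 8 chemicals, from 3832638 against 3725492 in trichostatin A to 3038905 against 1485592 in vorinostat.

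**Figure D5:**
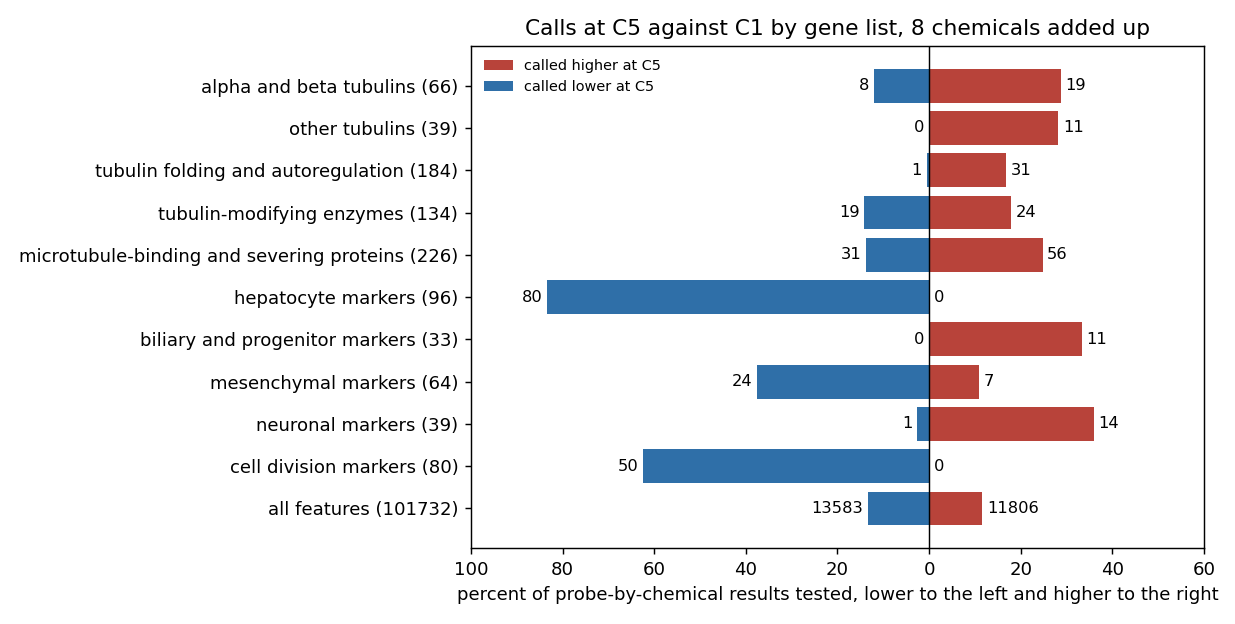
Share of tests called higher (right, red) and lower (left, blue) at C5 against C1 for each gene list, in percent of the tests made over 8 chemicals (number in brackets), with the number of calls at the bar ends. The tubulins analysed had 19 higher and 8 lower of 66, and 6 of the 19 were TUBA1A_12436. Hepatocyte and cell division markers had 0 higher, and all probes together had 11.6% higher and 13.4% lower.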

How the data were processed

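Raw TempO-Seq probe counts, as deposited by the authors in 1 table, were used for 118 libraries. The submitters' processing notes name bcl2fastq 2.20.422, fastp 0.23.2, STAR 2.7.10b and DESeq2 1.38.0 without their order, and no normalization had been applied to these counts. A paper on another experiment was read for style only. The table had 22069 rows, of which 1, missing in 88 libraries, was left out. The probe sequences were not used here, so cross-detection of near-identical isotypes was not tested. Total counts ran from 1061359 to 5250260 per library, and the median was 3702007, so counting error is large for probes with few counts.

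Each chemical was fitted alone with edgeR 4.0.16 in R 4.3.3 (filterByExpr with a minimum count of 10, TMM scaling, quasi-likelihood F test). Changes are log2 fold changes of C2 to C5 against C1. P-values were adjusted by the Benjamini-Hochberg method over all probes of the chemical, and a call needed an adjusted p under 0.05 and a fold of 1.5. The SE was the log2 change over the square root of F. CPM values are counts scaled to the library total of the probes that passed the filter, times the TMM factor. Both came from each chemical's own fit, so CPM of different chemicals were scaled apart. Differences among chemicals were tested in 1 fit of 40 groups. The steps were tested on counts simulated for the tacedinaline design, with changes placed only in probes with ample counts. That test does not cover the members with few counts.

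Every tubulin probe is described, each by library in the chemical of its largest called C5 change (its largest change where none was called); of other lists, the 3 probes called in most chemicals are named, except for some that are not reported here. These members and lists were chosen with earlier results of these data known. A floor of 3 counts over a group stood for groups at 0, and 95% intervals of count ratios cover counting error only. Promoter sequences and gene positions are from RefSeq, GRCh38.p14; all 9 genes matched.

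The replicate number marks a batch of HepaRG cells in the labels and so pairs the samples. Same-batch samples deviated from the group mean with a median r of 0.0477 (232 pairs), against -0.0228 for different batches (464 pairs). Fits with the batch as a block, other scalings, no filter, DESeq2 1.42.0, 1 fit of all libraries, summed probes and left-out libraries were alternatives. Leaving out the libraries that stood apart (mean correlation with the others of their group under 0.95, these above 0.96) was chosen after seeing the data.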

Additional observations from a re-analysis of the deposited data

Results flagged for a closer look

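The C5 minus C1 change differed among the 8 chemicals for 3 tubulin probes in the edgeR F test over all 118 libraries. For TUBA4A the adjusted p was 2.082e-08, with changes from -1.25 in tacedinaline to 0.62 in apicidin on the log2 scale. For TUBA1A_12436 the adjusted p was 0.006535, a result that rests on trichostatin A, the chemical with 0 counts at C5, since it was 0.550 without it. For TUBB2B the adjusted p was 0.04923, with changes from -1.56 in valproic acid to 1.31 in mocetinostat, and it was above the threshold without any one batch.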

How the results depend on the processing

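With replicates left out in turn, the number of tubulin probes called at C5 ranged from 1 to 3 in apicidin (5 with all libraries), 2 to 6 in mocetinostat (5), 0 to 1 in panobinostat (2), 1 to 4 in scriptaid (4), 5 to 6 in tacedinaline (5), 0 to 0 in trichostatin A (0), 1 to 2 in valproic acid (3) and 2 to 4 in vorinostat (3). The number that differed among chemicals ranged from 1 to 2 (3 with all libraries). Calls among all probes in these smaller fits are not reported here, so a loss particular to the tubulins was not tested. Mocetinostat had 3 calls with the probes of a gene summed, panobinostat had 1 in the fit of all 118 libraries, and trichostatin A had 1, TUBA1B, without the filter; the causes were not tested. With the batch as a replicate block the counts were 5 in apicidin, 4 in mocetinostat, 2 in panobinostat, 4 in scriptaid, 6 in tacedinaline, 0 in trichostatin A, 3 in valproic acid and 3 in vorinostat, and 2 among chemicals. The block ended the calls of TUBB2A in mocetinostat and TUBB2B among chemicals, made that of TUBB2B in tacedinaline, and changed no other call.

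Of 761 single values under an alternative, 714 kept their call status (20 of these, uncalled in both, differed in sign), 34 lost the call, 13 gained it and 0 called values changed sign. Without scaling beyond the total, the median change of all probes went to 0.10 in apicidin, 0.27 in mocetinostat, 0.16 in scriptaid, 0.22 in tacedinaline and 0.16 in valproic acid. The higher share of all calls went from 48.6% to 59.4% in mocetinostat, from 41.7% to 53.8% in panobinostat, from 48.2% to 59.5% in tacedinaline and from 43.8% to 62.0% in valproic acid. Median counts per library were lowest, and counting error thus largest, for TUBA1A_12436, TUBA1C, TUBB3 and TUBB6.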
